A study of Mus musculus with 18 samples.

Results

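Primary microRNA transcripts are the long RNAs from which microRNAs are cut, and a microRNA host gene is a longer transcript that carries one or more of these hairpins. The members described here were chosen by their total read count, a measured value. They are the genes whose symbol starts with Mir and a digit, or with Mirlet, host genes ending in hg included, and which held 5 or more reads summed over all 18 libraries of a polysome profiling experiment in mouse embryonic stem cells (ESCs). This gave 60 genes of the 1190 microRNA entries in the counts table and of its 51467 genes. They carry 59 symbols, because Mir1949 names 2 overlapping entries. Of the microRNA entries, 1048 held no read and 142 held at least 1. At the threshold, 6 members held exactly 5 reads, and 5 entries with 4 reads were left out. The members were 6 host genes and 54 hairpins, whose annotated length ran from 57 to 141 bases with a median of 79.5. Counted among the hairpins are Mir5117, Mir3096 and the 141-base entry of Mir1949, which are annotated as snoRNAs.

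Most microRNAs begin as hairpins in a capped and polyadenylated RNA polymerase II transcript. In the nucleus the Microprocessor, made of the RNase DROSHA and its RNA-binding partner DGCR8, cuts the hairpin out and so destroys the long transcript, and DICER then trims the hairpin to the mature microRNA. Bases 2 to 8 of the mature microRNA, its seed, pair with target messages. In ESCs the best known families come from the miR-290 cluster and from the miR-17 cluster inside Mir17hg, while let-7 matures as the cells differentiate.

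The 6 groups were the monosome, low polysome and high polysome fractions of wild type (WT) ESCs and of Dgcr8 knockout (KO) ESCs, with 3 libraries each. WT cells were of the V6.5 line, the KO cells were a line made earlier, both grew in medium with LIF and 2 kinase inhibitors, and both were treated with 100 ug/ml cycloheximide, which holds ribosomes on messages. Libraries of a genotype with the same replicate number were taken as the fractions of 1 sucrose gradient, 6 gradients in all, as their titles imply. With 1 KO line, what belongs to the deletion and what belongs to the line cannot be told apart. Whether the 3 gradients of a genotype came from separate cultures is not given in the sources used here, so the p-values measure the spread between gradients only.

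Total counts per library ranged from 1151649 to 4984833, and the monosome libraries were the smallest, at 1151649 to 2436888. Levels are given as CPM, the count of a gene scaled to the size of its library. A level of 0 CPM stands for 0 reads, and 3 reads, the limit that a count of 0 allows in a library, corresponded to 0.689 to 2.65 CPM. Dgcr8 reads remained in the KO libraries: 68.4 to 79.6 CPM in WT against 47.3 to 52.0 in KO monosomes, 51.8 to 70.0 against 39.0 to 58.6 in low polysomes, and 26.1 to 29.6 against 8.73 to 23 in high polysomes. QuantSeq reads only 3′ ends, and whether the deletion covers that end is not given in the sources used here, so these reads do not check the genotype. In such bulk samples, fewer cells of a type and less RNA per cell cannot be told apart. All 10 ESC markers were measured, at a summed 3485 to 6045 CPM per library. By the calls defined below, 2 of these 10 fell in high polysomes, where 17.9% of all genes tested fell. Whether the markers differed from all genes in this was not tested. The ESC marker sums in high polysomes were 5522 to 6045 CPM in WT and 3731 to 4387 CPM in KO. The markers of other cells were low. Their sums were lower in KO in monosomes and, for the fibroblast list only, in high polysomes. In monosomes 10 embryonic fibroblast markers summed to 11.5 to 13.4 CPM in WT and 2.72 to 9.01 CPM in KO, and 8 primitive endoderm markers to 13.4 to 20.7 and 5.48 to 10.6 CPM. In high polysomes the fibroblast sums were 7.96 to 14 and 4.83 to 7.27 CPM. The endoderm sums there, 20.4 to 34.3 and 9.63 to 22.8 CPM, overlapped, and of the 3 endoderm markers tested 1 rose and 1 fell. In low polysomes the genotypes overlapped for both lists. Their part in the results was not tested. None of these markers was at 0 over all libraries. The KO low polysome library of replicate 1 stood apart, with 154 CPM of H19 against 4.17 and 6.31 in the other two and 14.8 CPM of Lin28a against 1.28 and 1.58, and its fibroblast sum was the highest of all libraries, at 24.6 CPM. Low polysome results are therefore also given without it, a choice made after its values were seen.

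The mature sequences below are those that the results turn on, from RefSeq on GRCm38.p6, with the seed in capitals. The first set comes from the miR-290 cluster, in which some hairpins were called and their neighbours were not.
miR-290a-3p: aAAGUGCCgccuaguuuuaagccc
miR-291a-3p: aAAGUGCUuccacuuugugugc
miR-291b-3p: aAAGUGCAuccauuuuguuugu
miR-293-3p: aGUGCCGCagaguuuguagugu
miR-294-3p: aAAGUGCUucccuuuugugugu
miR-295-3p: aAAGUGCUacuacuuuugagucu
The 3p arms of miR-291a, miR-294 and miR-295 share the seed AAGUGCU, and those of miR-290a and miR-291b differ from it in the last base of the seed. The 3p arm of miR-293 has another seed. Mir292 is represented in the table by its 5p arm only.

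The next set is carried by Mir17hg, whose exons overlap 6 hairpins.
miR-17-5p: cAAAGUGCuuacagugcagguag
miR-18a-5p: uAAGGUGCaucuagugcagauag
miR-19a-3p: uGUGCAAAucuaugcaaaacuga
miR-20a-5p: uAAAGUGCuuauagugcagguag
miR-19b-3p: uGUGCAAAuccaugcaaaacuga
miR-92a-3p: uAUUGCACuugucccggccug
miR-17-5p and miR-20a-5p share the seed AAAGUGC, and miR-19a-3p and miR-19b-3p share GUGCAAA. The last set holds the other members that differed between genotypes in at least 1 fraction, miR-703, whose place in the gradient differed, miR-15a, which shares a seed with miR-16, and let-7b, whose monosome reads were all in KO cells.
miR-29a-3p: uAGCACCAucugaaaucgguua
miR-16-5p: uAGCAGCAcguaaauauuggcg
miR-15a-5p: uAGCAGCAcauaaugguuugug
miR-9-5p: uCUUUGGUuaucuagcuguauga
let-7b-5p: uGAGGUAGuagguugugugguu
miR-703: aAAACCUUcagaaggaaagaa
miR-5136: aUAUGCGAgggaacuacugg
miR-3091-5p: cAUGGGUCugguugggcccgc
miR-7079-5p: aGGGCUGAggcagugaguccug
miR-15a-5p and miR-16-5p have the same seed, AGCAGCA. The seed of let-7b-5p, GAGGUAG, is also that of let-7a-5p, let-7f-5p and miR-98-5p, which belong to other members.

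Reads were concentrated in few members. The 60 genes held 14829 reads in all, and the 10 with the most reads held 91.9% of them. Members made up 0.0583% ± 0.00361 of the counts in WT monosomes (SD, n = 3 here and for every level below) and 0.107% ± 0.0266 in KO monosomes. The share was 0.0139% ± 0.000688 in WT and 0.0231% ± 0.00296 in KO low polysomes, and 0.00499% ± 0.000599 in WT and 0.00918% ± 0.000827 in KO high polysomes. In each fraction all 3 KO libraries were above all 3 WT libraries. In both genotypes the share was lowest in high polysomes, a description with no test. Much of the difference between genotypes came from few members. Mir17hg, Mir294 and Mir295 held 213, 38 and 89 reads in WT monosomes and 2672, 866 and 963 in KO monosomes. Of the 17 members fitted below, these 3 included, 9 had a positive and 8 a negative change in monosomes. Mir703 and Mir7079 held 495 and 515 reads in WT monosomes and 419 and 413 in KO monosomes, whose libraries were deeper. Mir22hg went the other way, with 167 and 469 reads. Whether the share of the other members was higher in KO was not tested.

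The order of levels differed between the genotypes. In WT monosomes Mir7079 (123 ± 6.33 CPM) and Mir703 (121 ± 22.3) stood first, and their levels overlapped. Mir17hg (51.7 ± 10.3), Mir5136 (48.5 ± 9.67) and Mir293 (47.5 ± 4.97) followed, also within their spread of each other. In KO monosomes Mir17hg was first at 376 ± 130 CPM, followed by Mir295 (135 ± 34.5) and Mir294 (121 ± 34.5), which overlapped, and then by Mir22hg (68.0 ± 14.7), Mir703 (60.1 ± 3.03) and Mir7079 (59.4 ± 5.14), within their spread of each other. Counts of 3′ ends do not grow with transcript length, so these levels were not divided by length. That holds for whole transcripts, whereas 54 members are entries of 57 to 141 bases, most within longer RNAs. Their level counts only the reads inside that window, so the order is one of entries and not of transcript amounts.

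The genotypes were compared within each fraction to ask which primary transcripts change where the Microprocessor is lost. The limma-voom fit took the 12851 genes that reached 3 CPM in 3 libraries, and 17 of them were members: 5 host genes and 12 hairpins. A call needed a Benjamini-Hochberg adjusted p below 0.05 together with a log2 change beyond 1 in either direction. Changes are KO against WT on the log2 scale. Of the 17, Mir29a passed the filter only through KO libraries, and Mir9-3hg and Mir16-1 only through WT libraries, so their calls rest in part on that choice. In monosomes 4 members rose and 4 fell, where 8.43% of all genes tested were called higher and 9.63% lower. In low polysomes 4 rose and 1 fell, beside 11.4% and 13.6% of all genes. In high polysomes 4 rose and 2 fell, beside 15.1% and 17.9%. The same 4 members, Mir17hg, Mir294, Mir295 and Mir29a, rose in all 3 fractions and no member fell in all 3. The median change of the 17 was 0.05, -0.07 and 0.47 in the 3 fractions, beside -0.05, 0.00 and -0.08 over all genes tested. In high polysomes the median of the 17 was 0.43 when Mir29a and Mir3082, both unread in WT there, were not taken at their fitted values. With total counts in place of the TMM factors used here, the split of all called genes moved from 1083 higher and 1237 lower to 1274 and 1061 in monosomes, and from 1946 and 2303 to 1426 and 3114 in high polysomes, while the calls of the 4 members that rose were kept.

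**Figure D1:**
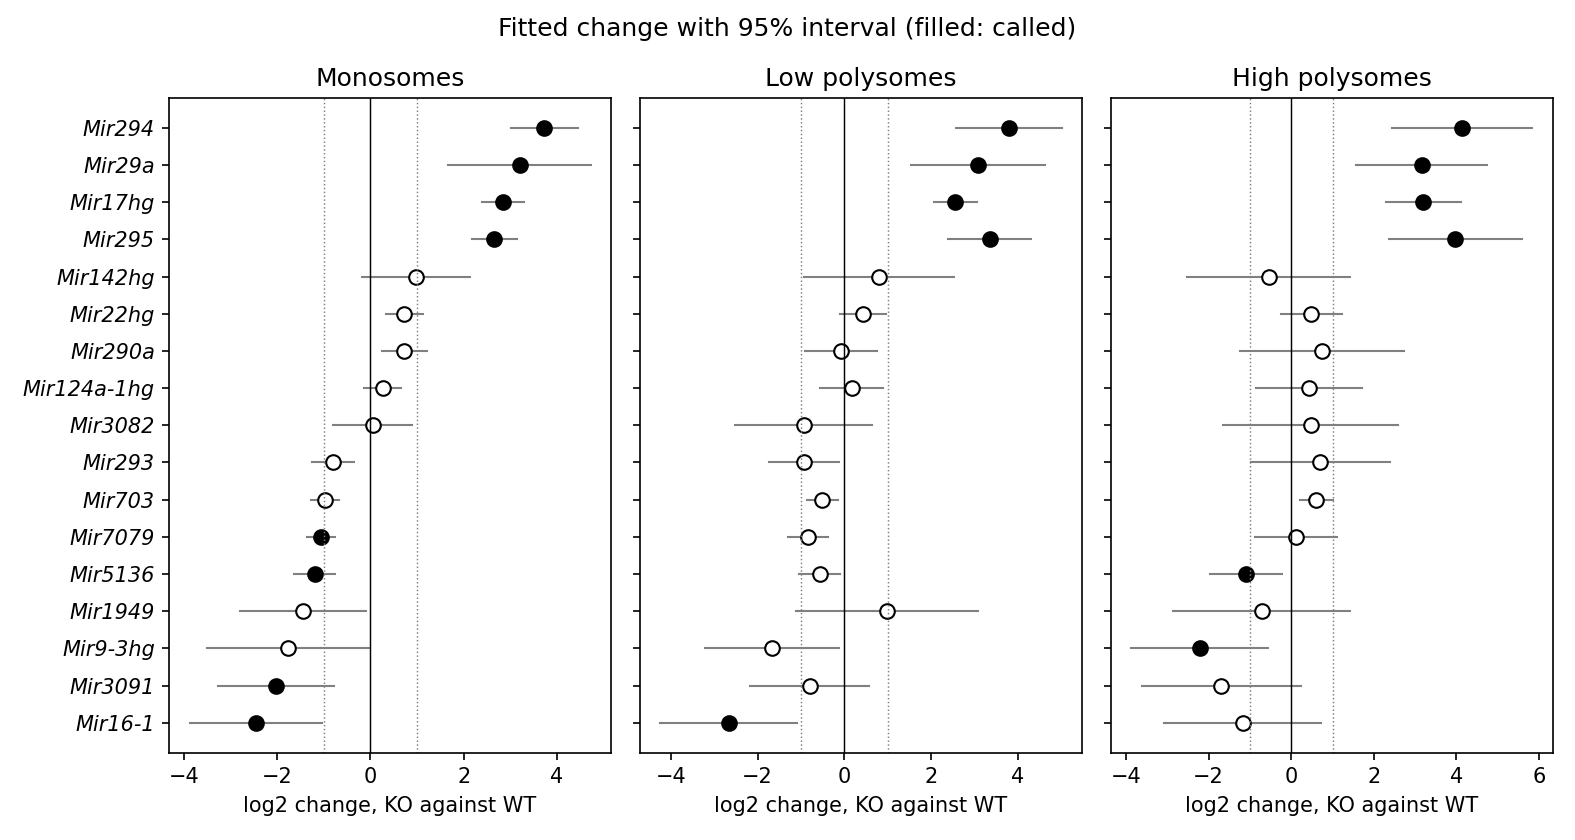
Fitted log2 change of the 17 tested members, KO against WT, with its 95% interval, in each fraction (filled points were called, dotted lines mark a change of 1 in either direction). Mir294, Mir29a, Mir17hg and Mir295 lie to the right in every panel, from 2.55 to 4.14 (fitted values, which for Mir29a are no bound), whereas the other 13 lie between -2.66 and 0.98.

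Mir17hg (chr14:115042879-115046727, mm10 as for all positions here), the long noncoding host of the miR-17 cluster, had the highest level of the members in KO cells. Its WT monosome levels were 40.2, 54.9 and 60.1 CPM and its KO levels 289, 525 and 314 CPM. The log2 change was 2.84 (SE 0.23, adjusted p = 3.06e-13). In low polysomes it held 10.9, 23.2 and 20.8 CPM in WT and 89.1, 136 and 96.7 CPM in KO, a change of 2.55 (SE 0.24, adjusted p = 1.3e-11), and 2.67 (SE 0.25) without the KO library of replicate 1. In high polysomes the WT levels were 1.95, 5.41 and 5.73 CPM and the KO levels 33.7, 48.5 and 36.5 CPM, a change of 3.20 (SE 0.45, adjusted p = 8.01e-08). No KO library overlapped a WT library in any fraction, and KO gradient 2 was the highest in each. The entries Mir17, Mir18, Mir19a, Mir20a, Mir19b-1 and Mir92-1 had 0 reads, and each overlaps an exon of Mir17hg on the same strand. Reads that overlap 2 genes were dropped in counting, so these values of 0 do not measure the hairpins.

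None of the 4 other tested host genes was called higher. Mir22hg (chr11:75461539-75466676), the host of miR-22, ran from 37.1 to 41.9 CPM in the monosomes of WT cells and from 52.1 to 81.2 CPM in those of KO cells, groups that did not overlap, but its change of 0.73 (SE 0.19, adjusted p = 0.00244) was under the fold threshold. Its changes in low and high polysomes were 0.43 (SE 0.26) and 0.48 (SE 0.36), with adjusted p of 0.165 and 0.252. Mir124a-1hg, the host of a copy of the neuronal miR-124, stood in monosomes at 41.8 ± 6.71 CPM (WT) and 50.2 ± 15.3 CPM (KO), and its changes of 0.26, 0.17 and 0.43 did not pass. Mir142hg, the host of the blood cell microRNA miR-142, had 2.5 ± 1.13 and 5.21 ± 3.27 CPM in monosomes, with overlapping libraries in every fraction and no call. Without the KO library of replicate 1, the low polysome changes of these 3 hosts were 0.47, 0.26 and 0.62, none of them called.

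Mir9-3hg (chr7:79500117-79534403), host of a copy of miR-9, a microRNA of the nervous system, fell in high polysomes. There the WT libraries held 3.51, 0.721 and 3.18 CPM and the KO libraries 0.661, 0 and 0.689 CPM. The change was -2.21 (SE 0.82, adjusted p = 0.0183), and the KO libraries were all below the WT ones by a small margin. The call was lost without WT replicate 1 (-1.89), WT replicate 3 (-1.89) or KO replicate 2 (-1.46). In monosomes its change was -1.77 (SE 0.86, adjusted p = 0.106), but edgeR (-2.44) and DESeq2 (-2.50) called it there. The fit with the replicate number as a block also called it there (-1.98) and in low polysomes (-1.54). In low polysomes the change was -1.67 (SE 0.76, adjusted p = 0.0631), and it was called without WT replicate 3 (-2.15), without KO replicate 1 (-2.22) and without the KO low polysome library of replicate 1 alone (-2.22, adjusted p = 0.0489). Mir9-3hg rests on 70 reads in all. It entered the fit through 3 WT libraries and 0 KO libraries at 3 CPM, so its calls rest in part on the filter.

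**Figure D2:**
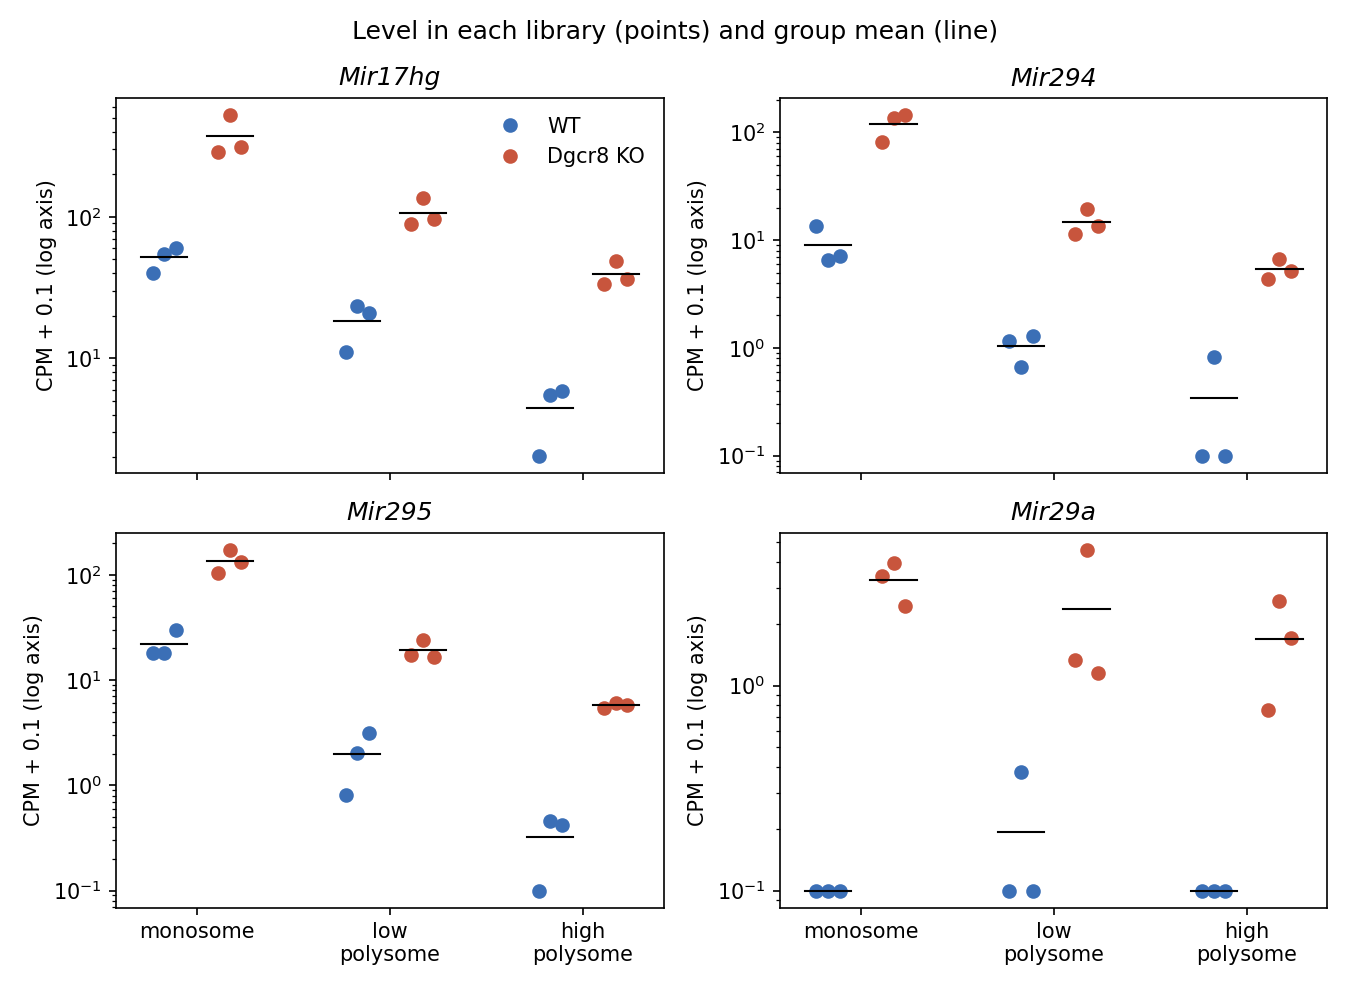
Level of Mir17hg, Mir294, Mir295 and Mir29a in each of the 18 libraries (points, WT blue, KO red) by fraction, with the group mean as a line, on a log axis of CPM + 0.1 whose range differs between panels. In every panel and fraction the KO points lie above the WT points, and for Mir29a most WT points lie at the value of 0 reads.

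The miR-290 cluster encodes the most abundant microRNAs of ESCs. Its 7 hairpins with reads lie on the plus strand of chromosome 7, where the last starts 2147 bases after the first, and each was a separate member. Hairpins this close can be carried by 1 primary transcript, so Mir294 and Mir295, 48 bases apart, may not be 2 independent rises. Differences between the hairpins, and whether they depend on where reads fall along a shared transcript, were not tested. All but Mir290a lie opposite Nlrp12. Mir294 (chr7:3220641-3220724) held 13.4, 6.45 and 7.07 CPM in WT monosomes and 81.2, 136 and 145 CPM in KO monosomes, a log2 change of 3.73 (SE 0.36, adjusted p = 4.6e-11). In low polysomes its levels were 1.06, 0.558 and 1.2 CPM in WT and 11.4, 19.2 and 13.4 CPM in KO, a change of 3.79 (SE 0.60, adjusted p = 1.29e-06), or 3.94 without the KO library of replicate 1. The WT high polysome libraries held 0, 0.721 and 0 CPM, 2 reads in all, and the KO libraries 4.30, 6.52 and 5.06 CPM, or 56 reads. As a ratio of reads per depth this was 22.4-fold (95% exact binomial interval 5.92 to 190, which covers counting error only), and the adjusted p was 5.19e-05. Mir294 was thus higher in all 9 KO libraries than in any WT library of the same fraction.

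Mir295 (chr7:3220773-3220841) lies 48 bases downstream of Mir294 and was also higher in every KO library. Its WT monosome levels were 18.1, 18.1 and 30.1 CPM and its KO levels 103, 172 and 132 CPM, a change of 2.66 (SE 0.24, adjusted p = 7.35e-12). In low polysomes it held 0.705, 1.95 and 3.01 CPM in WT and 17.2, 24.0 and 16.6 CPM in KO, a change of 3.35 (SE 0.47, adjusted p = 1.25e-07), or 3.42 without the KO library of replicate 1. In high polysomes 2 WT reads stood against 60 KO reads, a ratio of 24.0-fold (6.36 to 203; adjusted p = 4.46e-05). The groups did not overlap in any fraction.

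The other hairpins of the cluster were not called in any fraction or had too few reads. Mir290a, the most upstream, held 22.1, 30.3 and 32.7 CPM in WT and 29.5, 59.8 and 50.5 CPM in KO monosomes, groups that overlapped, with a change of 0.72 (SE 0.24, adjusted p = 0.0152) that was under the fold threshold, and without the KO library of replicate 1 its low polysome change was 0.00 (SE 0.45). Mir293, whose end lies 218 bases upstream of Mir294, held 43.5, 45.8 and 53.0 CPM in WT and 20, 45.0 and 20 CPM in KO monosomes, a change of -0.80 (SE 0.22, adjusted p = 0.00379). In low polysomes Mir293 was lower in all 3 KO libraries, by -0.93 (SE 0.40, adjusted p = 0.0482), again under the fold threshold, and without the KO library of replicate 1 its adjusted p was 0.0759. Without KO replicate 2, the highest KO gradient, Mir293 was called in both fractions, at -1.22 and -1.12. High polysomes held few reads of both, with 3 WT and 8 KO reads of Mir290a and 5 and 11 of Mir293. The 3 hairpins between them were nearly unread: Mir291a had 4 WT and 7 KO reads over all libraries, Mir291b 10 and 15, and Mir292 0 and 17.

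**Figure D3:**
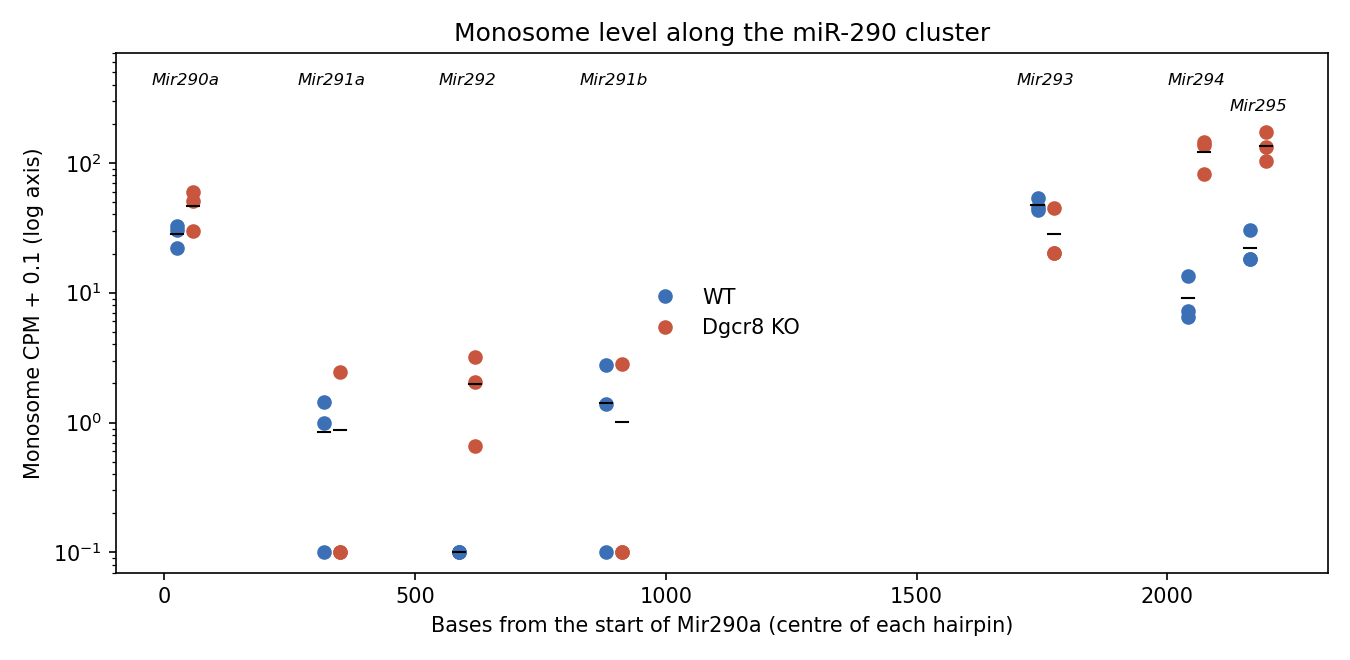
Monosome level (log axis, CPM + 0.1) of the 7 members of the miR-290 cluster by the distance of each hairpin from the start of Mir290a, with WT libraries in blue, KO libraries in red and group means as lines. The KO points stand clear of the WT points at Mir294 and Mir295, at the downstream end, and overlap them at Mir290a and Mir293.

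Mir29a (chr6:31062660-31062747), the hairpin of a microRNA known for repressing collagen and DNA methyltransferase genes, was read almost only in KO cells. It had 1 read in the 9 WT libraries together, in low polysomes, and 22, 22 and 17 reads in KO monosomes, low and high polysomes. In monosomes the KO libraries held 3.34, 3.88 and 2.35 CPM, which is at least 1.45-fold higher than a floor of 3 counts per WT library (adjusted p = 0.000832). In high polysomes they held 0.661, 2.49 and 1.61 CPM, at least 1.48-fold higher (adjusted p = 0.000633). In low polysomes the KO libraries held 1.23, 4.49 and 1.05 CPM against 0, 0.279 and 0 in WT, a ratio of 21.1-fold with an interval of 3.40 to 869, since it rests on 1 WT read (adjusted p = 0.000797). The genotypes did not overlap in any fraction, and without the KO library of replicate 1 the low polysome call was kept (adjusted p = 0.000538). Mir29a entered the fit through 3 KO libraries and 0 WT libraries at 3 CPM, so its calls rest in part on the filter.

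In all, 5 members fell in at least 1 fraction. Mir9-3hg is described above. Mir16-1 (chr14:61631880-61631972), in an intron of the noncoding host Dleu2, fell in monosomes, where WT libraries held 5.36, 6.45 and 2.65 CPM and KO libraries 0.556, 0.777 and 0.783 CPM (-2.45, SE 0.71, adjusted p = 0.00546). In low polysomes 23 WT reads stood against 3 KO reads, a ratio of 8.01-fold (interval 2.42 to 41.7; adjusted p = 0.00417), and the change was -1.90, no longer called, without KO replicate 3. Without the KO library of replicate 1 it was -3.18 (adjusted p = 0.00344). In high polysomes there were 4 WT and 3 KO reads, and no call. Mir16-1 entered the fit through 3 WT libraries and 0 KO libraries at 3 CPM, so its calls rest in part on the filter. Its neighbour Mir15a, in the same intron, had 0 reads in the 9 WT libraries and 12 in the KO libraries. Dleu2 itself, named with Rpl13, Rps21 and Stub1 after their values were seen, changed by 0.51 (SE 0.17) in monosomes, -0.12 (SE 0.17) in low and 0.26 (SE 0.26) in high polysomes and was not called.

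Mir5136 (chr19:8888699-8888774, minus strand, opposite Lbhd1) fell in monosomes from 37.5, 52.3 and 55.7 CPM to 15.6, 20.6 and 25.9 CPM (-1.19, SE 0.22, adjusted p = 3.03e-05). It also fell in high polysomes, from 5.46, 4.69 and 7.01 CPM to 1.98, 3.11 and 2.76 CPM (-1.10, SE 0.43, adjusted p = 0.0252), with no overlap in either fraction. That second call was lost without WT replicate 3 (-0.93), KO replicate 1 (-0.95) or KO replicate 3 (-1.14). In low polysomes the libraries overlapped and the change was -0.57 (SE 0.24), or -0.79 (SE 0.27) without the KO library of replicate 1.

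Mir7079 and Mir3091 lie in introns of ribosomal protein genes, Rpl13 and Rps21, on the same strand. Mir7079 fell in monosomes from 130, 121 and 118 CPM to 57.3, 65.2 and 55.6 CPM (-1.05, SE 0.15, adjusted p = 3.2e-07), close to the fold threshold, and it was not called without WT replicate 2 (-1.0), without KO replicate 3 (-1.0), with total counts (-0.95), with no CPM filter (-0.98) or with only the libraries compared (-1.0). All 3 KO libraries were lower in low polysomes too (-0.84, SE 0.23, adjusted p = 0.00209; -0.80 without the KO library of replicate 1), and it was called there without WT replicate 2 (-1.06) or KO replicate 3 (-1.0). The groups overlapped in high polysomes (0.11, SE 0.49, but -0.11 with total counts). Mir3091 fell in monosomes from 12.1, 5.81 and 7.07 CPM to 0.556, 5.82 and 1.18 CPM (-2.03, SE 0.62, adjusted p = 0.00831), with KO replicate 2 inside the WT range, and the call was lost without WT replicate 1 (-1.71) or KO replicate 3 (-1.70). Its changes of -0.80 in low polysomes (-1.54 without the KO library of replicate 1) and -1.70 in high polysomes were not called, although the latter was without KO replicate 1 (-2.31). Rpl13 changed by -1.98 (SE 0.15) in monosomes, -0.89 (SE 0.15) in low and -1.43 (SE 0.16) in high polysomes, and was called in monosomes and in high polysomes, where Mir7079 was not. Rps21 was called in all 3 fractions, at -1.02 (SE 0.10), -1.37 (SE 0.10) and -1.12 (SE 0.11), whereas Mir3091 was called in monosomes alone. The difference between hairpin and host was not tested. Whether reads in these introns come from the hairpin, the intron or the unspliced host was not tested.

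The remaining tested members changed little or were too thinly read. Mir3082, which overlaps an exon of Stub1, stood in monosomes at 7.54 ± 1.18 CPM (WT) and 8.59 ± 4.0 CPM (KO), a change of 0.05 (SE 0.42), beside 0.27 (SE 0.13) for Stub1. Its low polysome change of -0.94 (SE 0.78) was called only without WT replicate 2 (-1.92), and was -1.0 without the KO library of replicate 1. Mir1949, here the 141-base entry annotated as a snoRNA, stood in monosomes at 4.69 ± 1.0 CPM (WT) and 2.60 ± 2.55 CPM (KO), with 20 reads in each genotype. Its KO libraries ran from 0 to 13 reads, and no fraction gave a call, but the monosome change of -1.44 (SE 0.67) was called without KO replicate 3 (-2.30).

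Polysome position was compared next, to ask how far these noncoding transcripts travel into the gradient. In both genotypes all 17 tested members had a lower fitted level in high polysomes than in monosomes. In WT cells 15 of them were called on this monosome side, beside 19.3% of all genes tested. In KO cells 14 of 17 were, beside 25.5% of all genes. The position was not particular to the members. Of the hosts named above, Dleu2 (-3.01, SE 0.24), Rps21 (-3.22, SE 0.11) and Rpl13 (-1.74, SE 0.15) were also called there in WT, and Stub1 (0.14, SE 0.13) was not. No member was called on the high polysome side in either genotype. The median high polysome to monosome change of the members was -3.58 in WT and -3.24 in KO, beside -0.01 and -0.07 over all genes. Without Mir29a, which had no WT read in either fraction, and with Mir3082 at its bound, the WT median was -3.34.

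Several cluster hairpins and the hairpin in Rpl13 lay far to the monosome side. In WT cells Mir293 changed by -6.10 (SE 0.68) and Mir7079 by -5.70 (SE 0.38) between monosomes and high polysomes, and 117 monosome reads of Mir290a stood against 3 high polysome reads, a 79.2-fold ratio (interval 26.4 to 390). For Mir295 the 89 monosome and 2 high polysome reads gave 90.4-fold (24.3 to 758), and for Mir294, with 38 and 2 reads, 38.6-fold (9.97 to 330). Mir3082 had 32 WT monosome reads and no WT high polysome read, at least 7.05-fold by a floor of 3 counts per library. In KO cells, where Mir294 and Mir295 had many more reads, their changes were -4.47 (SE 0.30) and -4.53 (SE 0.28).

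The tested host genes ran from -4.93 to -0.24 in WT and from -4.77 to -0.68 in KO cells. Mir17hg changed by -3.58 (SE 0.46) in WT and -3.22 (SE 0.20) in KO cells, Mir22hg by -2.99 (SE 0.33) and -3.24 (SE 0.25), and Mir124a-1hg by -4.93 (SE 0.51) and -4.77 (SE 0.42). Mir142hg was called on the monosome side in both, in WT from 10 and 2 reads (10.2-fold, interval 2.16 to 95.3), and that WT call was lost without WT replicate 3 (-2.40). In KO cells it had 38 and 1 reads (58.1-fold, interval 9.82 to 2360). Mir9-3hg was called in neither genotype, at -0.24 (SE 0.69) and -0.68 (SE 0.97), and its difference from the other hosts was not tested. Mir29a was also called in neither, with 22 KO monosome and 17 KO high polysome reads, but with total counts its KO change was called (-1.32). Mir16-1 was called in WT (-3.04, SE 0.74) and not in KO cells (-1.77, SE 0.91, adjusted p = 0.0845), where it had 5 and 3 reads, except without KO replicate 2 (-2.73). Of the KO calls, Mir3091 (-1.12) and Mir1949 (-2.60) were lost without KO replicate 2.

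**Figure D4:**
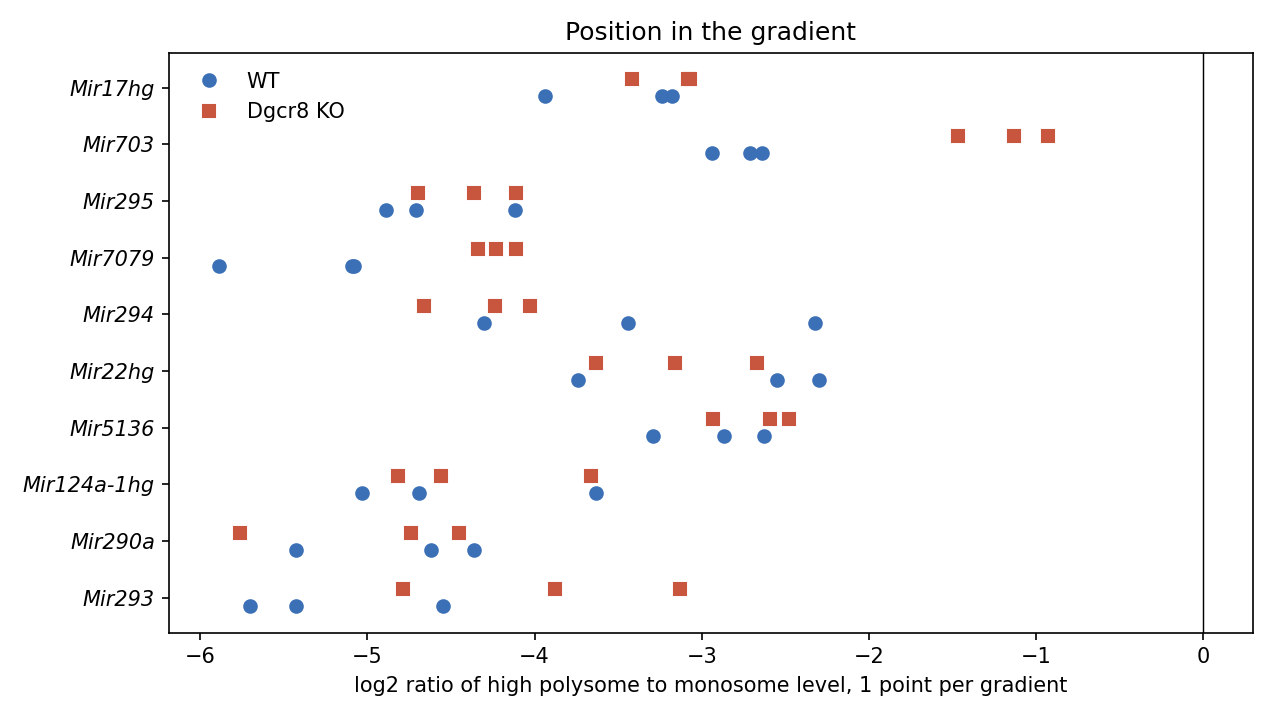
log2 ratio of the high polysome to the monosome level (prior count of 2) in each of the 6 gradients, WT as blue circles and KO as red squares, for the 10 members with a mean of 20 counts or more over the 12 monosome and high polysome libraries. All values are below 0, and the KO gradients lie wholly to the right of the WT gradients for Mir703 and Mir7079.

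A change in this position between the genotypes, the interaction of genotype with fraction, was called for 1 of the 17 members, beside 15.1% of all genes tested. For all genes the split was 808 higher and 1132 lower, or 282 and 2070 with total counts. That member was Mir703 (chr5:98475556-98475664, minus strand, opposite Cfap299). Its monosome level was 108, 108 and 147 CPM in WT and 56.7, 62.5 and 61.1 CPM in KO, whereas its high polysome level was 16.8, 15.9 and 18.5 CPM in WT and 29.4, 22.1 and 27.6 CPM in KO. The groups were apart in both fractions, with KO lower in monosomes and higher in high polysomes, by -0.98 (SE 0.15) and 0.61 (SE 0.20), each under the fold threshold. The interaction was 1.59 (SE 0.25, adjusted p = 5.13e-06) and stayed called in each of the 6 fits that left out a gradient, from 1.48 to 1.73. The ratios per gradient were -2.64, -2.71 and -2.94 in WT and -0.93, -1.47 and -1.13 in KO (two-sided exact permutation test over gradients, p = 0.1, the smallest that 3 against 3 allow). In low polysomes Mir703 was lower in all 3 KO libraries (-0.51, SE 0.18, adjusted p = 0.0149; -0.48 without the KO library of replicate 1). The monosome change was called without WT replicate 1 (-1.04) or KO replicate 2 (-1.0).

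For Mir7079 the ratios per gradient were also apart, at -5.09, -5.08 and -5.89 in WT and -4.11, -4.23 and -4.34 in KO (exact permutation p = 0.1), but its interaction of 1.16 (SE 0.51, adjusted p = 0.0864) was not called. For the 4 members that rose, the interaction was 0.36 (SE 0.50) for Mir17hg, 0.41 (SE 0.91) for Mir294, 1.31 (SE 0.83) for Mir295 and -0.04 (SE 1.09) for Mir29a, which had no WT read in either fraction. The 95% intervals of -0.66 to 1.38, -1.44 to 2.26, -0.37 to 3.00 and -2.24 to 2.16 include shifts in either direction.

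The other 43 members were below the filter of the fit, with 5 to 55 reads each and 680 in all. They are given as reads, and the calls of a fit without the filter follow them. By plain counts 27 had more reads in KO, 13 in WT and 3 the same, but the KO libraries held more reads (28653242 against 21979401). Scaled by these totals, 21 were higher in KO and 22 in WT, a near even split. Most of their reads were in monosomes (313) and low polysomes (244), with 123 in high polysomes, though the high polysome libraries were deeper than the monosome ones.

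**Figure D5:**
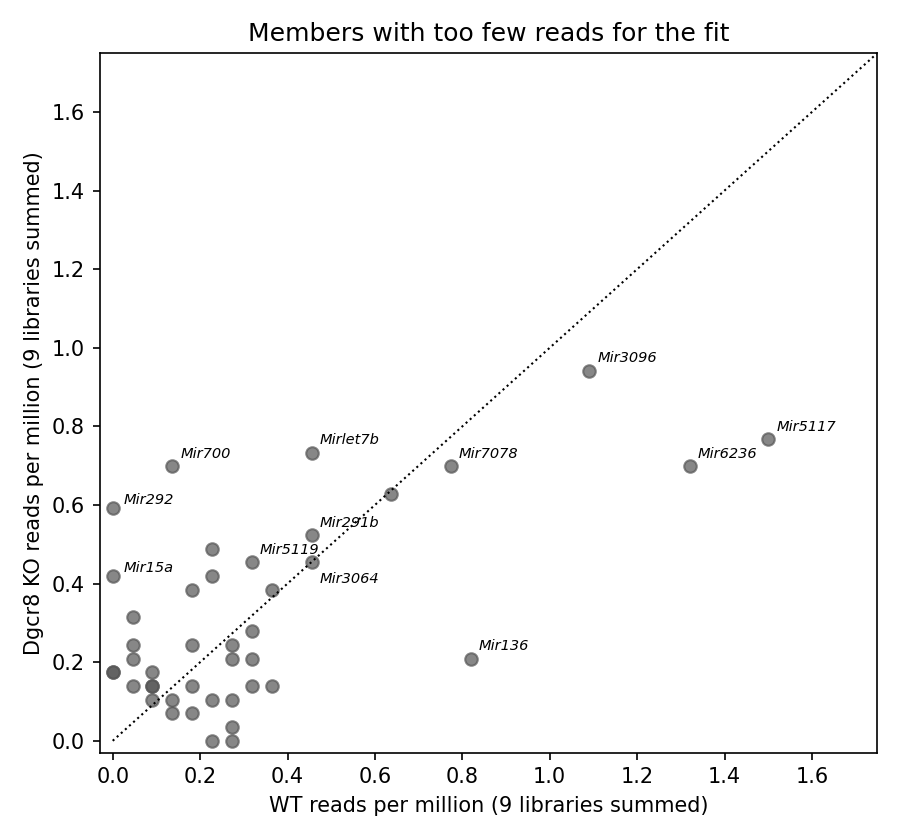
Level in CPM of the 43 members under the filter, from reads summed over the 9 WT libraries (horizontal) and the 9 KO libraries (vertical), with the line of equal values dotted and 10 of the 11 members of 20 or more reads, Mir292 and Mir15a named. Points lie on both sides of the line, with Mir700, Mir292 and Mir15a above it and Mir136, Mir6236 and Mir5117 below it.

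Of these, 11 had 20 reads or more, and 10 of them are given here. Mirlet7b, a hairpin of the let-7 family, had 0, 0 and 0 reads in WT and 3, 11 and 2 in KO monosomes, which is at least 1.02-fold higher by the floor of 3 counts per library, whereas in low polysomes it had 10 WT and 4 KO reads. Mir700, in an exon of Rcan3, had 3 WT and 20 KO reads. Mir291b had 10 and 15, and Mir5119, in an intron of Cdk12, 7 and 13. Mir7078, in an intron of Cmip, had 17 WT and 20 KO reads, Mir3064, in an exon of Ddx5, 10 and 13, and Mir3096 24 and 27, and these 3 were slightly lower in KO once scaled by the totals (0.773 and 0.698 CPM for Mir7078, 0.455 and 0.454 for Mir3064, 1.09 and 0.942 for Mir3096). More reads were in WT for Mir5117 (33 against 22), annotated as a snoRNA in an intron of Gas5, for Mir6236 (29 against 20) and for Mir136 (18 against 6), a hairpin of the imprinted chromosome 12 cluster that lies opposite Rtl1. Below 20 reads, Mir292 and Mir15a, named after their values were seen, had 0 WT reads, with 17 and 12 KO reads. The fit without the CPM filter, an alternative over 25635 genes, called 13 differences among the members below it. In monosomes it called Mir292, Mir15a and Mirlet7b higher in KO (adjusted p of 0.00104, 0.0465 and 0.00123) and Mir5117, Mir1982, Mir136, Mir6984 and Mir98 lower (0.0498, 0.0195, 0.0482, 0.0377 and 0.00874), where it called 5.41% of all genes higher and 8.94% lower. In low polysomes it called Mir7028, Mir3064, Mir136 and Mir6948 lower (0.0347, 0.00252, 0.0147 and 0.00839), and none of them higher, beside 8.57% of all genes lower and 7.19% higher, and this fit was not repeated without the KO library of replicate 1. In high polysomes it called Mir101b higher (0.028) and none of them lower, beside 8.71% and 10.9% of all genes. These limma-voom calls rest on few reads, such as 14 of Mir292 and 8 of Mir15a in KO monosomes against none in WT, and 4 of Mir136 in WT low polysomes against none in KO. The let-7 hairpins Mirlet7f-1 and Mirlet7a-1 had 7 and 6 reads in all. The miR-302 hairpins, known for ESCs and the epiblast, had no reads and Mir367 had 2, so none was a member.

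Where a hairpin lies bears on what its reads can be. Of the 60 members, 14 overlapped an exon of another gene on the same strand, 26 lay in an intron only and 20 had no gene on the same strand, while 18 had a gene on the opposite strand. The 14 include the 6 host genes, which overlap their own hairpins, and the 2 entries of Mir1949, which overlap each other. The rest of them were the hairpins Mir3082, Mirlet7b, Mir700, Mir3064, Mirlet7f-1 and Mirlet7a-1. By group, the 6 host genes held 6407 reads, the 7 hairpins of the miR-290 cluster 3583, the 26 hairpins inside protein-coding genes 1814, the 3 let-7 hairpins 44 and the 2 of the imprinted chromosome 12 cluster 37. The 16 others held 2944 reads, 1880 of them in Mir703. Of the 54 hairpins, 50 matched a RefSeq entry.

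The pathway around these transcripts was read from 2 gene lists. Of 24 genes of microRNA processing and function, all of which were tested, 1 rose and 1 fell in monosomes and in low polysomes, and 5 rose and 2 fell in high polysomes, with medians of 0.05, 0.07 and 0.42. In high polysomes this was 20.8% higher and 8.33% lower, beside 15.1% and 17.9% of all genes tested, and 4.17% each way in the other fractions, below the shares of all genes given above. Without the KO library of replicate 1, 2 rose and 1 fell in low polysomes, where Tnrc6b joined at 1.01 (SE 0.17). Lin28a and Lin28b moved in opposite directions. Lin28a, which encodes an RNA-binding protein that blocks let-7 maturation, fell by 3.99, 4.02 and 4.91 on the log2 scale (SE 0.51, 0.40 and 0.53; -5.06 in low polysomes without that library), from 42.1 ± 5.99 to 2.61 ± 0.975 CPM in monosomes. Its paralog Lin28b rose by 2.20, 3.32 and 1.46 (SE 0.43, 0.49 and 0.40; 3.27 without it), from 4.11 ± 2.57 to 17.5 ± 4.35 CPM in monosomes. The other genes that rose, in high polysomes only among the 3 fits, were Ago1 (1.18, SE 0.14), which encodes an Argonaute protein, Tnrc6a (1.34, SE 0.14) and Tnrc6b (1.35, SE 0.17), which encode scaffolds that bind Argonautes, and Srrt (1.20, SE 0.13). They were named after their values were seen. Total counts shifted the median of all genes in high polysomes by -0.224, and Ago1 and Srrt lay within that distance of the fold threshold. Their calls, and so the 20.8% called higher, were not tested with total counts. Drosha and Dicer1, the nucleases of the pathway, were under the fold threshold in each fraction, with changes of 0.60, 0.39 and 0.67 and of 0.10, 0.40 and 0.73. Dgcr8 changed by -0.56, -0.45 and -1.01 and was called in high polysomes.

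Of 23 further annotated microRNA hosts, 22 were tested. In monosomes none rose at the call threshold and 1 fell, in low polysomes none rose and 2 fell, and in high polysomes 1 rose and 2 fell, with medians of 0.07, 0.06 and 0.36. The 4.55% of hosts that fell in monosomes, the 9.09% in low and in high polysomes and the 4.55% that rose in high polysomes were each below the share of all genes tested (9.63%, 13.6%, 17.9% and 15.1%). Named after their values were seen, Rian fell in low polysomes (-1.09, SE 0.19; -0.96 and not called without the KO library of replicate 1), and in high polysomes Copz1 fell (-1.02, SE 0.12) and Meg3 rose (1.15, SE 0.21). Meg3 also lay within -0.224, the shift from total counts, of the fold threshold, and its call was not tested with them. The gene that fell in all 3 was H19, the imprinted host of miR-675, by -4.77 (SE 0.62), -1.63 (SE 0.48) and -2.17 (SE 0.57). Its level went from 263 ± 28.9 to 9.83 ± 3.47 CPM in monosomes. In low polysomes the group means went the other way from the fitted change, 48.9 ± 4.4 CPM in WT and 54.9 ± 86.1 CPM in KO, where the library that stood apart held 154 CPM. Without that library the low polysome change of H19 was -3.19 (SE 0.31, adjusted p = 5.83e-12).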

How the data were processed

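RNA of 18 polysome fractions was sequenced with QuantSeq 3′ FWD. The authors deposited unnormalised counts for each gene and library, made by trimming with cutadapt 1.14, aligning to mm10 with STAR 2.5.3a, keeping reads with a single location and counting by strand over GENCODE M14 basic exons with featureCounts 1.5.3. Reads that overlap 2 genes were dropped. The length column, another deposited value, served as annotation only. No molecular identifiers were stated, so duplicate reads could not be set apart. The exact binomial intervals of read ratios cover counting error only, whereas the intervals of fitted changes rest on the spread between libraries.

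Spike-in entries (92, at most 0.00215% of a library) were left out. Positions are those of the deposited table (mm10); symbols came from a table of gene names, and overlaps with other genes from GENCODE M21 on the same assembly. Genes with 3 CPM in at least 3 libraries were fitted with limma-voom (limma 3.58.1, R 4.3.3) on TMM-scaled counts, with 6 group means and no block, and p-values were two-sided and adjusted by Benjamini-Hochberg over all genes. CPM use TMM-scaled totals. Alternatives were edgeR 4.0.16, DESeq2 1.42.0, other scalings and filters, only the libraries compared, a replicate block and leaving out each gradient. Fits were tested on simulated data. The members, lists and tests were chosen with earlier results of these data known. Every tested member is named, and every other member with 20 reads or more except 1, which is not reported here; of the gene lists, Dgcr8 and genes called the same way in all 3 fractions are named, and Drosha, Dicer1 and the few others called were added. Zcchc11 and Zcchc6 were matched as Tut4 and Tut7.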

Additional observations from a re-analysis of the deposited data

Results flagged for a closer look

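The genotype effect on Mir703 differed between high polysomes and monosomes by 1.59 on the log2 scale, by a test of the interaction itself (SE 0.25, adjusted p = 5.13e-06 over all genes tested with limma). It was higher in KO high polysomes in 3 of 3 gradients and lower in KO monosomes in 3 of 3.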

How the results depend on the processing

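Of 1549 values of single members under an alternative, 1461 kept direction and side of the threshold, 27 passed it, 17 lost it and 44 changed sign, all 44 in differences that were not called. The cause was not tested. With no CPM filter the members called were 15 in monosomes (8 in the fit reported), 9 in low polysomes (5), 3 for the interaction (1), 34 in WT (15) and 27 in KO (14) between high polysomes and monosomes, from 25635 genes tested, and the genes called were 3679 in monosomes (2320) and 6958 in the WT gradient (3862). With a 10 CPM filter the members were 5 in monosomes and 3 in low polysomes. With no fold threshold 9 members were called in low polysomes, and the genes were 4797, 6716 and 7802 in the 3 fractions, 3621 for the interaction, 6944 in the WT and 8701 in the KO gradient (5520 in the fit reported). Total counts shifted the median of all genes by 0.105 in monosomes, -0.224 in high polysomes, -0.329 for the interaction and -0.249 in the KO gradient, whose split went from 2243 higher and 3277 lower to 1551 and 3932. They turned Mir7079 in high polysomes (-0.11) and the interactions of Mir5136 (-0.24), Mir124a-1hg (-0.16) and Mir290a (-0.32, and -0.04 with only the libraries compared). edgeR turned the interactions of Mir3091 (-0.13), Mir9-3hg (0.15) and Mir1949 (-0.78), and edgeR and DESeq2 put Mir29a, unread in WT, at 0.00 in the WT gradient.

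Leaving out 1 gradient moved these uncalled changes across 0: in monosomes Mir3082 (-0.35 to 0.42), in low polysomes Mir290a (-0.40 to 0.10), and in high polysomes Mir7079 (-0.30 to 0.33), Mir3082 (-0.37 to 1.01), Mir142hg (-1.01 to 0.29) and Mir1949 (-1.29 to 0.26). For the interaction they were Mir294 (-0.23 to 1.40), Mir22hg (-0.69 to 0.01), Mir5136 (-0.15 to 0.25), Mir124a-1hg (-0.17 to 0.65), Mir290a (-0.73 to 0.79), Mir3082 (-0.79 to 1.36), Mir3091 (-0.77 to 1.74), Mir9-3hg (-0.96 to 0.28), Mir29a (-0.34 to 0.40) and Mir1949 (-0.18 to 1.56), and in the WT gradient Mir9-3hg (-0.96 to 0.28).

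Equal replicate numbers of WT and KO did not pair: the correlations of their deviations were 0 to 0.102, and those of monosomes and high polysomes with 1 number 0.033 to 0.107. With the replicate number as a block the members called were 9 for monosomes, 6 for low polysomes and 6 for high ones. The interaction of Mir29a was 0.08, and 0.14 with a block for each gradient. Leaving out the KO low polysome library of replicate 1, chosen after seeing the data, gave 6 members called in low polysomes. Depth limited the 43 members under the filter, which held 5 to 55 reads each.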
